A study of Caenorhabditis elegans with 4 samples.

Results

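The genes *bet-1*, *chd-7* and *set-15* of *Caenorhabditis elegans* encode chromatin regulators of 3 different kinds, and each was the gene named as nearest to 1 peak in a list of regions enriched for N6-methyladenine (6mA) in genomic DNA. Their 3 peaks were taken from the 365 peaks of the deposited list by gene name, that is, because a peak was listed for them. Their presence in the list is therefore a description and not a result, and no test was made on it. All 3 are nuclear peaks, and they are set below against the other nuclear peaks, 364 in all.

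In the study, 6mA MeDIP-seq, in which an antibody pulls down DNA fragments carrying the modified base, was applied to whole wild-type animals of the strain Bristol at the L4 larval stage. The 4 libraries formed 4 groups of 1 library each: an antibody library and a library without antibody from animals given antimycin A, and the same pair from untreated animals. Antimycin A blocks complex III of the mitochondrial respiratory chain; it was dried onto the agar, and animals of all groups were raised at 22 °C from egg to L4. The labels give a dose of 1.92 µM for both treated libraries, although 1 title reads 1.93 µM, and the antibody is labelled as raised against N6-methyladenosine. The whole body was used, so the values belong to no single tissue. All peak names share the prefix PO_AA_rep1, which no sample label spells out. The peak list was therefore tied to none of the 4 libraries, and antimycin-treated and untreated animals were not compared. It holds positions and annotation but no height, score or read count; how deeply the libraries were sequenced is therefore unknown, and the strength of peaks cannot be compared.

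Chromatin regulators set how tightly DNA is packed and which genes can be read. BET proteins such as BET-1 bind acetylated histone tails through their bromodomains and help to keep transcription of a cell's own genes in place; in *C. elegans*, BET-1 is known for maintaining cell fates once they are chosen. CHD proteins use ATP to move or remodel nucleosomes, and CHD-7 is the worm relative of human CHD7, the gene altered in CHARGE syndrome. SET domains transfer methyl groups to lysines, most often those of histones, and SET-15 is a predicted member of that group. The 6mA mark itself is placed on adenines of DNA, and in *C. elegans* DAMT-1 and NMAD-1 are known as a candidate writer and an eraser.

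The *bet-1* peak was intergenic and lay upstream of the gene. It ran from 4536044 to 4536310 on chromosome I (build ce10), and the deposited table placed it 1379 bp upstream of the nearest transcription start, that of transcript NM_182079. At 267 bp it was the narrowest of the 3 and one of the narrower peaks of the list, with 39 of the other 363 nuclear peaks narrower still (10.7%, exact 95% binomial interval 7.75 to 14.4%). The median width over nuclear peaks was 404 bp, with quartiles of 310 and 541.5 bp. If the deposited distance runs from the peak's centre, which the table does not state, the *bet-1* peak covered the stretch 1246 to 1512 bp upstream of the start.

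The *set-15* peak was also intergenic and upstream. It ran from 4781106 to 4781499 on chromosome IV, 1219 bp upstream of the start of transcript NM_068241, and was 394 bp wide. That width was close to the middle of the list, with 173 of the other 363 nuclear peaks narrower (47.7%, 42.4 to 52.9%). On the same reading of the distance, the edge nearer the gene lay 1022.5 bp from the start and the far edge 1415.5 bp from it.

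The *chd-7* peak differed from the other two in lying inside its gene. It ran from 4696721 to 4697088 on chromosome I, in exon 2 of 9 of transcript NM_059025, and its distance was 983 bp downstream of the start of that same transcript. It was 368 bp wide, and 157 of the other 363 nuclear peaks were narrower (43.3%, 38.1 to 48.5%). With the distance taken from its centre, the peak covered the stretch 799.5 to 1166.5 bp into the transcribed region, counted along the genome with introns included.

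None of the 3 peaks was in the promoter class, but *bet-1* and *set-15* lay only a little beyond it. Among the 106 promoter peaks whose annotated transcript was also the one at the nearest start, the farthest upstream was at 990 bp. The nearest of the 66 upstream intergenic peaks was at 1004 bp. The change of class in this list thus fell between 990 and 1004 bp. The rule behind the classes is not given in the sources used here. Of the other upstream intergenic peaks, 5 were nearer to a start than the *set-15* peak and 14 were nearer than the *bet-1* peak, against a median of 1905 bp for that set (quartiles 1435 and 2986 bp). Over all classes the distances were ordinary: 213 of the other 363 nuclear peaks were nearer to a start than the *bet-1* peak (58.7%, 53.4 to 63.8%), 190 were nearer than the *set-15* peak (52.3%, 47.1 to 57.6%) and 167 were nearer than the *chd-7* peak (46.0%, 40.8 to 51.3%). The median over nuclear peaks was 1104.5 bp.

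**Figure D1:**
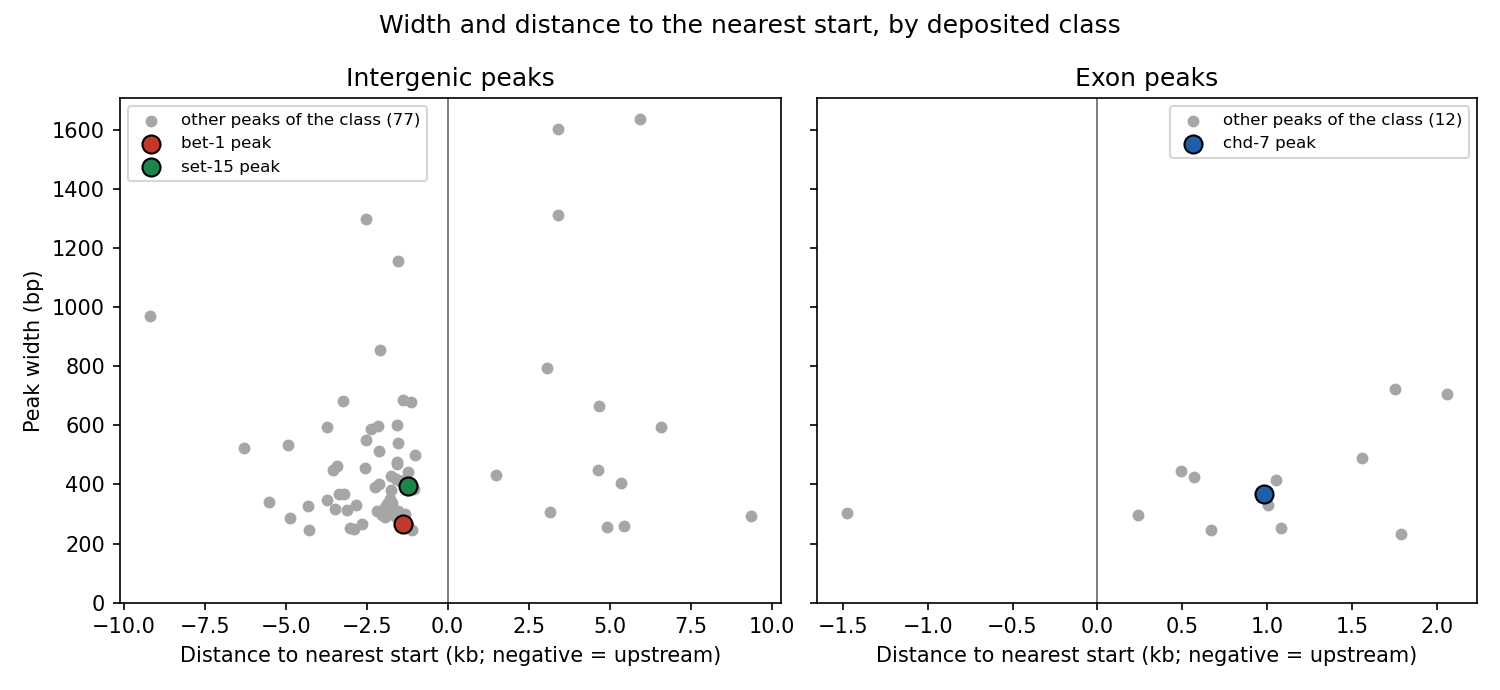
Peak width (bp, vertical axis) against signed distance to the nearest transcription start (kb, horizontal axis, negative upstream) for the 79 intergenic peaks (left) and the 13 exon peaks (right). Each point is 1 listed peak. The *set-15* (394 bp wide) and *bet-1* (267 bp wide) peaks stand at the right-hand edge of the upstream intergenic peaks, 1219 and 1379 bp from a start, and the *chd-7* peak lies in the middle of the exon peaks at 983 bp.

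The class of the *chd-7* peak was a small one. Exons held 13 peaks, of which 12 lay downstream of the nearest start and 11, *chd-7* among them, were annotated to the very transcript of that start. Exon 2 was the site of 4 of them, exon 1 of 1 and a last exon of 2. The 4 in exon 2 were those of *chd-7*, C35E7.9, T20B6.3 and the chitinase gene *cht-4*. Their distances to the start were 983, 493, 570 and 1006 bp, and their widths 368, 445, 425 and 331 bp. Within the class 6 of the other 12 peaks were narrower than the *chd-7* peak and 4 were nearer to a start.

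The peaks most like each of the 3 were taken as the peaks of the same class with the smallest difference in signed distance. For *bet-1* these were Y75D11A.1 (1372 bp upstream, a difference of 7 bp), the piRNA gene 21ur-14082 (1364 bp) and Y102F5A.1 (1354 bp), out of 78 other intergenic peaks. Their widths of 412, 686 and 413 bp were all above the 267 bp of the *bet-1* peak. For *set-15* they were C50H11.8 (1214 bp upstream), the hedgehog-like gene *wrt-9* (1235 bp) and the globin-related gene *glb-25* (1253 bp), with widths of 441, 264 and 382 bp. For *chd-7* they were *cht-4* (1006 bp downstream), Y8A9A.2 (1054 bp) and Y113G7B.12 (1078 bp), out of 12 other exon peaks. None of the 9 was a gene of the chromatin lists described below. Of the 9, the peak of Y75D11A.1 had its closest listed peak at 2737.5 bp and the other 8 had theirs beyond 10 kb, at 25251.5 bp or more. Over all nuclear peaks, 55 of 364 (15.1%) had one within 10 kb. Because *bet-1* and *chd-7* were picked partly for such a neighbour, nothing is read from the spacing of the 9 beside theirs.

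Each of the 3 peaks had another listed peak close by. For *chd-7* the closest was the peak of *linc-91*, a long intergenic non-coding RNA gene, with centres 2572.5 bp apart and 2161 bp between the facing edges. That peak (4699249 to 4699705, 457 bp wide) was annotated as a promoter and lay 133 bp upstream of the *linc-91* start. In the gene table *chd-7* and *linc-91* are direct neighbours with 0 genes listed between them. An exon peak of a remodelling ATPase gene and a promoter peak of the adjacent non-coding gene thus stood side by side.

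For *set-15* the closest peak was that of the non-coding RNA gene R11E3.16, 3594.5 bp away between centres and 3209 bp between edges. It ran from 4784708 to 4785086 (379 bp wide), was annotated as a promoter and was placed 62 bp downstream of the R11E3.16 start. Between the genes *set-15* and R11E3.16 the gene table lists 1, the nuclear hormone receptor gene *nhr-104*. On the other side the next listed peak was in the promoter of Y17G9B.8, 840 bp upstream of its start and 22345.5 bp from the *set-15* peak. The gene table lists 9 genes between *set-15* and Y17G9B.8. These counts are of genes between genes, not between peaks.

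For *bet-1* the closest peak was that of Y119C1B.3, a protein-coding gene described as hypothetical. The centres were 9386 bp apart and the edges 8987 bp. This neighbour was intergenic too (4545297 to 4545829, 533 bp wide), but it lay 4915 bp upstream of the Y119C1B.3 start, much farther than the *bet-1* peak from its own. Between the genes *bet-1* and Y119C1B.3 the gene table lists 2, *zig-9*, which encodes a secreted immunoglobulin-domain protein, and Y119C1B.13. Gene order does not show which genes lie between the peaks themselves. On the other side the next listed peak lay 49301.5 bp away, in intron 5 of 19 of the receptor guanylate cyclase gene *gcy-28*.

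A neighbour within 10 kb was part of how *bet-1* and *chd-7* were picked, so for them it supports nothing; *set-15* was not described that way but has one as well. Across the list, 55 of 364 nuclear peaks (15.1%) had another listed peak within 10 kb. Those 55 peaks made 29 adjacent pairs among the 358 of the list. Ranked from the closest, *chd-7* and *linc-91* were pair 6, *set-15* and R11E3.16 pair 11, and *bet-1* and Y119C1B.3 pair 27. The *bet-1* pair stood near the limit: the last pair inside it was T28D6.7 and T28D6.12 at 9990.5 bp, and the next pair beyond it was F09C8.2 and F09C8.5 at 12966 bp. The median distance of adjacent peaks was 172088 bp. Among exon peaks the *chd-7* peak was the 1 of 13 with a neighbour within 10 kb, and among intergenic peaks those of *bet-1* and *set-15* were 2 of 16 with one, out of 79. The closest neighbour was a non-coding RNA gene's peak for *chd-7* and *set-15*. That was so for 12 of the 39 peaks of protein-coding genes with a neighbour within 10 kb (30.8%), while ncRNA genes were nearest to 102 of 364 nuclear peaks (28.02%).

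**Figure D2:**
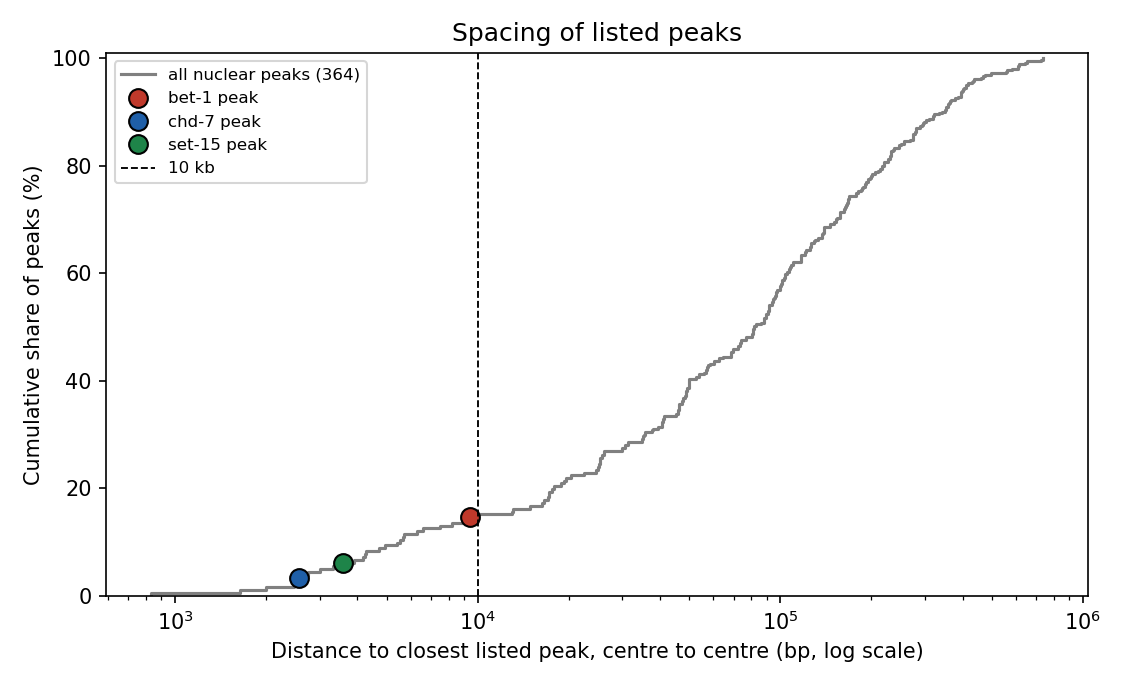
Cumulative share of the 364 nuclear peaks (%, vertical axis) by distance to the closest listed peak, centre to centre (bp, logarithmic horizontal axis), with the 3 peaks of chromatin regulator genes marked and the 10 kb limit dashed. The *chd-7* (2572.5 bp), *set-15* (3594.5 bp) and *bet-1* (9386 bp) peaks lie in the lowest part of the curve, to the left of the 15.1% reached at 10 kb.

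The *bet-1* and *chd-7* peaks belonged to the same stretch of chromosome I. Their centres were 160727.5 bp apart, with only the peak of Y119C1B.3 listed between them. Together with the peaks of *gcy-28* and *linc-91* they made a run of 5 listed peaks over 212954 bp (4486752 to 4699705). On each side followed a long stretch with no listed peak, 480930 bp to the peak of F55C7.2 and 616281 bp to that of F48C1.13. Of the 58 runs of 5 successive listed peaks on chromosome I, which overlap one another, 6 were shorter, and the median run spanned 788385 bp. The ends of this run were chosen after the positions were seen. The run also holds the close neighbours that were part of how *bet-1* and *chd-7* were picked. Its rank is therefore a description.

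The *set-15* peak was part of a similar run on chromosome IV. The peaks of Y17G9B.8, *set-15*, R11E3.16 and the piRNA gene 21ur-8691 spanned 130943 bp (4758843 to 4889785). The last of these was annotated to the promoter of *sgnh-1* and lay 153 bp downstream of the piRNA gene's start. The flanking stretches without a listed peak measured 303749 bp towards R08C7.11 and 409288 bp towards the major sperm protein gene *msp-113*. Of the 60 runs of 4 successive listed peaks on chromosome IV, 1 was shorter, against a median of 667624 bp; these ends too were chosen after the positions were seen.

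**Figure D3:**
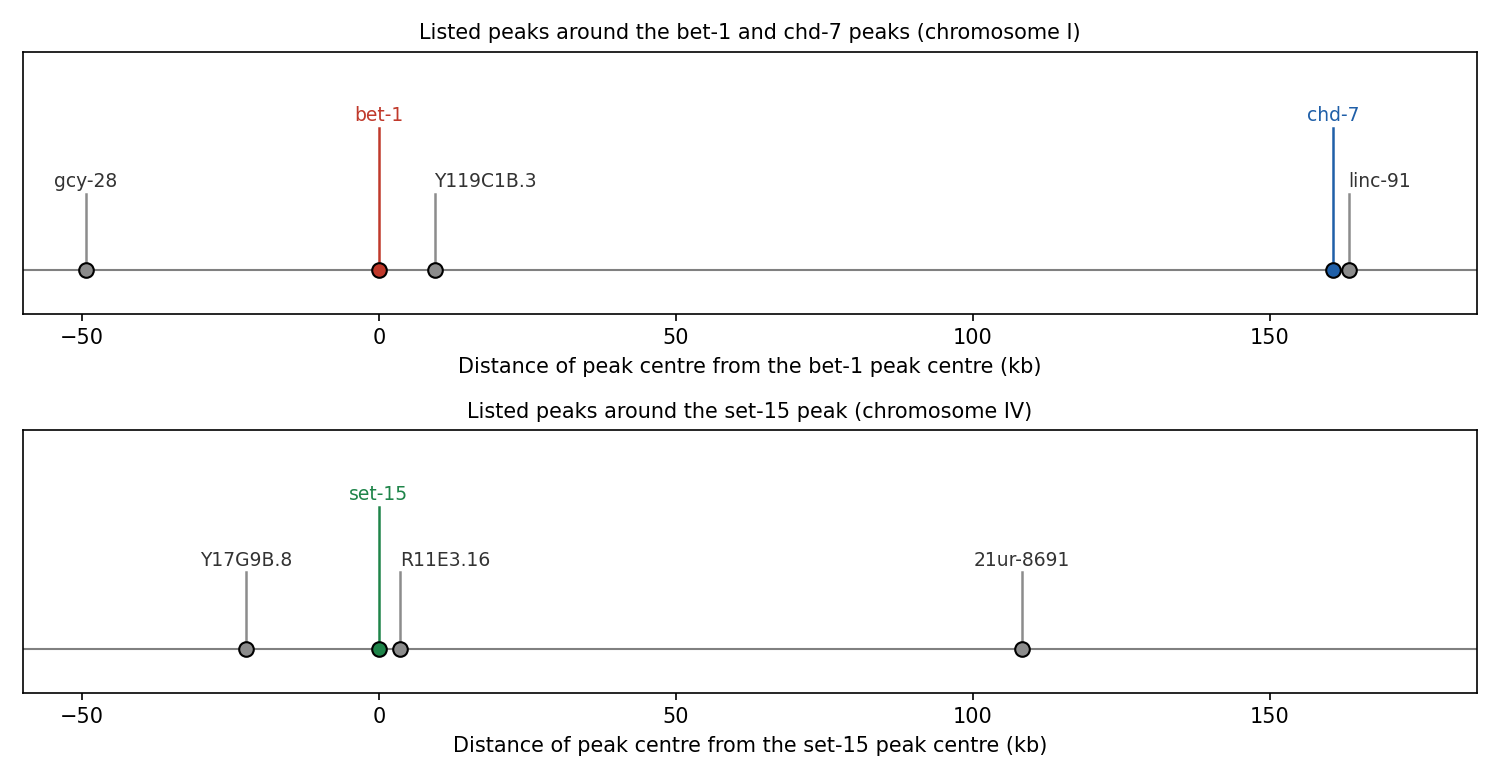
Listed peaks along the chromosome around the *bet-1* and *chd-7* peaks (upper, chromosome I) and the *set-15* peak (lower, chromosome IV), as distance of each peak's centre from the *bet-1* or *set-15* peak's centre (kb); stem height separates the labels and carries no value. Each of the 3 has another listed peak beside it, at 9386 bp for *bet-1*, 2572.5 bp for *chd-7* and 3594.5 bp for *set-15*.

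Peaks in the list carry numbers that follow their position along each chromosome, from 4 to 1645, while 365 peaks are listed. The *bet-1* and Y119C1B.3 peaks have the numbers 81 and 82, the *chd-7* and *linc-91* peaks 86 and 87, and the *set-15* and R11E3.16 peaks 873 and 874, so no numbered peak is missing inside any of the 3 pairs. Consecutive numbers were found in 86 of the 358 adjacent pairs of the list. These were 27 of the 29 pairs within 10 kb and 59 of all the remaining pairs, which were farther apart. Between Y119C1B.3 and *chd-7*, 3 numbers are not listed, and between *gcy-28* and *bet-1* 1 number is not listed. The peak of Y17G9B.8 has number 872, directly before that of *set-15*. Numbers are also skipped in the long stretches beside the runs described above. On chromosome I these lie between F55C7.2 (74) and *gcy-28* (79), and between *linc-91* (87) and F48C1.13 (96). On chromosome IV they lie between R08C7.11 (869) and Y17G9B.8 (872), and between 21ur-8691 (876) and *msp-113* (879). Those stretches lack listed peaks but are not shown to lack called ones. How the listed peaks were picked from the numbered ones is not given in the sources used here. A distance to the closest listed peak may therefore be longer than that to the closest peak called. For *set-15* the numbers on both sides, 872 and 874, are listed, so no unlisted numbered peak lies closer.

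Within 7 lists of chromatin genes, no gene but *bet-1*, *chd-7* and *set-15* was named as nearest to a peak. The lists do not cover every such gene and hold no separate Polycomb class. Genes outside the lists with chromatin roles do occur among the nearest genes, such as *sor-1* (Polycomb-like, intronic peak 1074 bp from the nearest start), *spat-3* (a RING-type gene, promoter peak 671 bp upstream) and *tlk-1* (a Tousled-like kinase gene, intronic peak), which were noted after their values were seen. Of the 12 genes in the bromodomain list, *bet-1* was the 1 with a listed peak. The 12 were not checked to be every bromodomain gene, so others may occur among the nearest genes. No peak was listed for *bet-2*, the other BET gene of those 12, or for the acetyltransferase gene *cbp-1*. Of 10 genes of SNF2-type remodelling ATPases matched in the gene table, *chd-7* was the 1 with a peak, and its relatives *chd-1*, *chd-3* and *let-418* had none listed. Of 38 SET-domain genes, *set-15* was the 1 with a peak. None of 18 acetyltransferase and deacetylase genes had a listed peak, including *mys-1* and *mys-2*, whose MYST-type products act with BET-1 in the worm. None of 12 histone demethylase genes had one, among them *jmjd-1.2* and *jmjd-3.1*, known for their part in the mitochondrial unfolded protein response. None of 10 genes of methyl-lysine readers had one, and neither *damt-1* nor *nmad-1* did. Over the 99 different genes of these 7 lists, 3 were nearest to a listed peak (3.03%), beside 0.763% of all 46926 genes and 1.26% of 19983 protein-coding genes in the gene table. The 3 were the starting point, so nothing is read from that difference, and with depth unknown the lack of a listed peak does not show that a gene lacks 6mA.

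A further SET-domain gene appeared when the annotated transcript was counted in addition to the nearest start. The peak from 1413393 to 1413758 on chromosome I (366 bp wide) was assigned to the termination site of a transcript of *set-29*, while the gene named as nearest was Y92H12BR.2, 2218 bp from whose start it lay on the downstream side. Its closest listed peak was 17194.5 bp away, where the first quartile over nuclear peaks was 25322 bp. Because *bet-1* and *chd-7* were picked partly for a close neighbour, nothing is read from this spacing beside theirs. With *set-29*, 4 of the 99 genes had a peak by either assignment, at 3 different kinds of place: an intergenic stretch upstream, an exon and a transcript end.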

How the data were processed

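The series deposited 1 table of annotated peaks. Per the submitters' processing notes, ce10 was the genome build and MACS2 2.1.0, Bowtie2 2.2.6, Trimmomatic 0.35 and Picard were among the tools, with no role or order given. Per the file headers, the authors gave each peak's position, annotation class, signed distance to the nearest start and nearest gene; no score or count is in the table. No label ties it to 1 library, so each group's single library entered no test.

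Here width was end minus start plus 1, and spacing the distance between peak centres on a chromosome. Shares carry exact (Clopper-Pearson) 95% intervals, which cover counting over listed peaks only. The code for the distance to the closest peak was checked on simulated positions with known distances; spacing itself was not tested against chance. Names were matched to NCBI RefSeq genes of WBcel235; its coordinates were used only for gene order. By symbol all 3 genes matched. Of their deposited transcripts that of *chd-7* matched, while those of *bet-1* and *set-15* were not found in the gene table. That table lists 8 transcripts for *bet-1*. The distances of the *bet-1* and *set-15* peaks thus rest on the deposited starts alone. Genes named were the 3, the next listed peaks on each side, the 3 most alike peaks and genes of the 7 lists with a peak; others were named after their values were seen. The genes and lists were chosen with earlier results of these data known. No sequence is printed, because no ce10 genome was used here. Python 3.11.15, NumPy 2.4.6, pandas 2.3.3, SciPy 1.17.1 and Matplotlib 3.10.9 were used.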

Additional observations from a re-analysis of the deposited data

How the results depend on the processing

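Measured between facing edges, the closest listed peak was 8987 bp from the *bet-1* peak, 2161 bp from the *chd-7* peak and 3209 bp from the *set-15* peak, shorter by construction. A limit of 5 kb kept *chd-7* and *set-15* as genes with a neighbour and left out *bet-1*, while 9.34% of nuclear peaks had one; with 20 kb the share was 22.0% and all 3 genes had one. Within their own class, 50.0% of peaks were narrower than the *chd-7* peak. Within the class, 17.9% of peaks were nearer to a start than the *bet-1* peak, 33.3% than the *chd-7* peak and 6.41% than the *set-15* peak, and the nearest intergenic peak to a start was at 1004 bp. Among peaks nearest to protein-coding genes these shares were 52.7%, 37.7% and 45.8%. A promoter window from 2000 bp upstream to 100 bp downstream took in 2 of the 3 peaks, those of *bet-1* and *set-15*. Taking protein-coding genes as the base gave 1.26% of genes with a listed peak. Of 25 alternatives, 11 left a count within 1.5 times its main value or a share inside its 95% interval; these include the 2 genes left at 5 kb and the 4 genes with a peak once *set-29* was counted by annotated transcript, each against 3. A stricter peak threshold was not run, because the table holds no score. No paired analysis was possible because there was just 1 peak list, tied to none of the libraries.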
